A study of Mus musculus with 9 samples.

Results

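The p53, INK4 and RB growth brakes examined here are 10 genes, Trp53, Mdm4, Cdkn2a, Cdkn2b, Cdkn2c, Cdkn2d, Cdkn1b, Rb1, Rbl1 and Rbl2, taken by gene name from the 24341 genes listed in each count file. Their RNA was measured by mRNA sequencing in mouse embryonic fibroblasts (MEFs), the matrix-producing cells obtained when an embryo is dissociated and plated, with 3 samples each of the WT, Atm-/- and Sirt6-/- genotype. All 9 samples are labelled C57BL/6 and were grown in DMEM with serum, without any drug or damaging agent in the labels. Atm encodes a kinase that is switched on by DNA breaks, and Sirt6 encodes a chromatin-bound deacetylase. The genotypes were compared pairwise to see how the genes that restrain proliferation differed between them, which bears on MEFs because their escape from growth arrest in culture usually involves these same genes.

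As background, p53 is a transcription factor that accumulates after damage or oncogenic signals and switches on genes of cell cycle arrest and cell death, while Mdm2 and Mdm4 hold it down. The INK4 proteins block the D-cyclin kinases Cdk4 and Cdk6, so that the RB family stays unphosphorylated and keeps E2F transcription factors from driving genes of DNA replication. In cultured mouse fibroblasts the Ink4/Arf locus is switched on with passage, and lines that grow on have commonly lost either p53 or that locus.

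The groups have limits as models. Among the source animals the labels name p53-null mice and mice null for both Atm and p53, without saying which samples came from them. The study's methods describe the Atm-/-; p53-/- and the Sirt6-/- cells as immortalized lines given by other laboratories and mention primary MEFs too. The study's text calls the sequenced cells Atm-/- MEFs and names a p53-null background only for a separate measurement of metabolites, and it does not state the p53 genotype of the sequenced cells. Loss of Atm, loss of p53, immortalization and origin of a line therefore cannot be told apart in what follows. Nothing says that samples of a genotype came from separate embryos or cultures, so p-values here measure only the spread between these samples, which may be technical.

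Sirt6 had 487, 402 and 472 reads in WT and 4, 5 and 7 in Sirt6-/-, so it was nearly absent from the samples with that label. Atm had 1536, 1617 and 1627 reads in WT and 3768, 3564 and 3443 in the samples labelled Atm-/-, a rise of 1.04 on the log2 scale, so the gene-level count does not check that label, and Atm-/- below stands for the samples labelled so. Samples held 32187040 to 33837949 reads counted on genes. Of 10 fibroblast markers, 9 exceeded 10 CPM (reads scaled to a common library size) in WT, 9 in Atm-/- and 8 in Sirt6-/-. Their summed level was 18889 to 22362 CPM in WT, 5886 to 6010 in Atm-/- and 16515 to 16969 in Sirt6-/-, and Lum, a fibroblast proteoglycan gene, was at 0 reads in all Atm-/- samples and at no more than 10 reads elsewhere. All 9 fibroblast markers tested were called against WT, where 68.4% of all genes were called in Atm-/- and 76.6% in Sirt6-/-. In Atm-/- 1 was higher and 8 were lower, and in Sirt6-/- 4 were higher and 5 lower. The 1 higher in Atm-/- was Thy1, a surface marker of fibroblasts. It had 941, 590 and 785 reads in WT, 2874, 3200 and 2970 in Atm-/- and 1, 33 and 12 in Sirt6-/-. The epithelial markers summed to 20.7 to 25.4 CPM in WT, 43.9 to 48.5 in Atm-/-, where the keratin gene Krt18 was 3.88-fold higher than in WT, and 15.4 to 19.9 in Sirt6-/-. The endothelial markers summed to 3.30 to 5.21, 10.5 to 12.7 and 1.27 to 1.56 CPM, and the macrophage markers to 15.3 to 16.2, 7.12 to 7.68 and 7.33 to 8.96 CPM. The part of these marker differences in the results below was not tested.

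Trp53, the p53 gene on chr11:69580359-69591873 (GRCm38, plus strand), was the member that differed most between the genotypes. It had 7108, 7102 and 6563 reads in WT, 806, 946 and 928 in Atm-/- and 9081, 9127 and 9218 in Sirt6-/-. The Atm-/- samples were far below all others, the Sirt6-/- samples lay above WT, and no samples of different genotypes overlapped. In normalized CPM this was 219 ± 9.82 in WT, 25.9 ± 2.29 in Atm-/- and 279 ± 2.79 in Sirt6-/- (mean ± SD, n = 3 each). Against WT, Trp53 in Atm-/- was 8.52-fold lower (log2 fold change -3.09 with standard error 0.07, adjusted p = 2.99e-14, edgeR quasi-likelihood test, Benjamini-Hochberg over 13283 genes), and 262 of the genes tested had a lower fold change. In Sirt6-/- it exceeded WT 1.27-fold (log2 fold change 0.35 with standard error 0.05, adjusted p = 7.93e-06, same edgeR test). The Atm-/- level was low but not at background, since 806 reads lie well over the 3 reads taken as the floor of detection. In such bulk samples, fewer cells with the RNA and less RNA per cell cannot be told apart. As the p53 genotype of these cells is not stated, the gene-level count does not show whether the Atm-/- reads come from intact Trp53 RNA.

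Mdm4, which encodes a p53-binding inhibitor (chr1:132959484-133030561, minus strand), was lower in both mutants than in WT. Reads were 4287, 4467 and 4207 in WT, 3372, 3169 and 3242 in Atm-/- and 2938, 2834 and 2739 in Sirt6-/-. Every WT sample lay above every mutant sample. The log2 fold change was -0.54 in Atm-/- (standard error 0.05, adjusted p = 2.63e-07) and -0.66 in Sirt6-/- (standard error 0.05, adjusted p = 2.88e-08) by the edgeR quasi-likelihood test. Between the mutants Mdm4 was 8.76% lower in Sirt6-/- (log2 fold change -0.13, adjusted p = 0.0235, edgeR), with the nearest samples at 90.1 and 90.4 CPM. That call was lost without Sirt6-/- replicate 3, Atm-/- replicate 1 or Atm-/- replicate 3, with adjusted p of 0.114, 0.0901 and 0.0651. Its partner Mdm2, itself a p53 target, was lower in Atm-/- (log2 fold change -0.40) and lower still in Sirt6-/- (-1.11), so that Mdm4 had 1.36 ± 0.08 reads per Mdm2 read in WT, 1.23 ± 0.06 in Atm-/- and 1.86 ± 0.22 in Sirt6-/-.

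Cdkn2a on chr4:89274471-89294653 (minus strand) encodes p16Ink4a, an inhibitor of Cdk4 and Cdk6, and, from another start site and reading frame, p19Arf, which blocks Mdm2. The files list both transcripts under one count, so p16Ink4a and p19Arf RNA cannot be told apart. The stretches before both start sites, and before that of Rbl1, are shown since these are the members counted higher in Atm-/- than in WT (RefSeq, GRCm38.p6, minus strand, 5′ to 3′). The Rbl1 stretch is the 200 bases next to its start, while the Cdkn2a stretches run from base -250 to base -51 and leave out the bases nearest their starts. Capitals mark a match to an E2F word, any of TTTCCCGC, TTTCGCGC, TTTGCCGC and TTTGGCGC on either strand.
Cdkn2a, p19Arf start, chr4:89294670-89294869: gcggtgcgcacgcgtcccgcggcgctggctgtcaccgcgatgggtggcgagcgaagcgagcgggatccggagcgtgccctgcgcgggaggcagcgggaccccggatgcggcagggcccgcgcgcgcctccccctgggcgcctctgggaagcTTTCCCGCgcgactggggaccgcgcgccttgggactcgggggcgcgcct
Cdkn2a, p16Ink4a start, chr4:89282243-89282442: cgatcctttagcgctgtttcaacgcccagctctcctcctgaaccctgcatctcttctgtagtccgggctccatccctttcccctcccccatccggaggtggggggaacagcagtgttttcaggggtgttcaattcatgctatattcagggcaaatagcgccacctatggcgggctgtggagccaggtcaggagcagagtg
Rbl1, chr2:157204535-157204734: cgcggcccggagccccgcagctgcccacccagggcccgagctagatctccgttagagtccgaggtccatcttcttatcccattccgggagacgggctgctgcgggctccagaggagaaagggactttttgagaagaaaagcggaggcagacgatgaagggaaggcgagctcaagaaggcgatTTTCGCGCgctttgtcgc
The word TTTCCCGC stood before the p19Arf start and TTTCGCGC before the Rbl1 start. No E2F word was in the stretch at the p16Ink4a start or in the windows of the other members, while Rb1 was not matched in the promoter table. Of 32851 promoter windows of 300 bases, 744 (2.26%) held such a word. These matches describe letters only and say nothing of binding in these cells.

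Cdkn2a was higher in both mutants. It had 2399, 2044 and 2399 reads in WT, 7482, 8046 and 7165 in Atm-/- and 5642, 5395 and 6348 in Sirt6-/-. No genotypes overlapped, and the gene was well counted in all 9 samples. The Cdkn2a level in Atm-/- was 3.02-fold that of WT (log2 fold change 1.59 with standard error 0.06, adjusted p = 1.25e-11, edgeR quasi-likelihood test). In Sirt6-/- it was 2.45-fold that of WT (log2 fold change 1.29 with standard error 0.07, adjusted p = 1.80e-10, edgeR), and it was lower there than in Atm-/- by 0.32 on the log2 scale (adjusted p = 6.26e-06, edgeR).

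Cdkn2b (p15Ink4b) lies 11.6 kb from Cdkn2a, at chr4:89306299-89311039 on the same strand, and did not follow it in Atm-/-. Its reads were 1678, 1518 and 1577 in WT, 1296, 1296 and 1288 in Atm-/- and 1999, 1991 and 2167 in Sirt6-/-. Atm-/- was lowest and Sirt6-/- highest, without overlap. The log2 fold change was -0.44 in Atm-/- (standard error 0.06, adjusted p = 2.50e-05) and 0.31 in Sirt6-/- (standard error 0.06, adjusted p = 2.43e-04) against WT by the edgeR test. There were 1.43 ± 0.09 Cdkn2a reads per Cdkn2b read in WT, 5.85 ± 0.33 in Atm-/- and 2.82 ± 0.11 in Sirt6-/-. Mtap, the methionine salvage gene 93.4 kb to the other side of Cdkn2a, differed little, with log2 fold changes of -0.13 in Atm-/- and -0.21 in Sirt6-/-, both past the test (adjusted p = 0.0312 and 0.00189, edgeR). The Atm-/- call of Mtap was lost with library totals as the scale, where its log2 fold change was 0.032 (adjusted p = 0.582, edgeR), with at least 10 counts in every sample, and without WT replicate 2 or any 1 of the Atm-/- samples.

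The other INK4 genes encode inhibitors of the same kinases. Cdkn2c (p18Ink4c, chr4:109660876-109667189) had 1447, 1216 and 1385 reads in WT, 1189, 1279 and 1162 in Atm-/- and 2231, 2243 and 2190 in Sirt6-/-. It was higher in Sirt6-/- than in WT (by 0.67 on the log2 scale, standard error 0.07, adjusted p = 4.01e-07, edgeR) and slightly lower in Atm-/- (-0.29, standard error 0.07, adjusted p = 0.00271). The Atm-/- call did not hold with library totals as the scale (log2 fold change -0.13, adjusted p = 0.132, edgeR).

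Cdkn2d (p19Ink4d, chr9:21288410-21291407) moved the other way from Cdkn2a, being lower in both mutants. Reads were 1134, 1167 and 1194 in WT, 737, 855 and 712 in Atm-/- and 721, 922 and 746 in Sirt6-/-. All mutant samples lay below WT while the mutants overlapped each other. It fell by 0.74 on the log2 scale in Atm-/- (standard error 0.08, adjusted p = 1.19e-06, edgeR) and dropped by 0.60 in Sirt6-/- (standard error 0.09, adjusted p = 4.02e-05). The difference between the mutants was 0.12 with a 95% interval from -0.08 to 0.33 (adjusted p = 0.258, edgeR).

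Per kilobase of listed length, the 4 INK4 genes summed to 164 ± 8.98 CPM in WT, 297 ± 11.9 in Atm-/- and 288 ± 12 in Sirt6-/-. Cdkn2a made up 47.4 ± 1.39% of that sum in WT, 79.3 ± 0.29% in Atm-/- and 66.1 ± 1.96% in Sirt6-/-. In Atm-/- the remaining shares were 9.06% for Cdkn2b, 5.78% for Cdkn2c and 5.88% for Cdkn2d, against 22.1%, 12.8% and 17.8% in WT. The share of Cdkn2c in Sirt6-/- was 11.6 ± 0.79%, against 12.8 ± 0.38% in WT, although its own level was higher. These shares carry no test. The Cdkn2a count pools p16Ink4a and p19Arf RNA, so the sums and shares cannot be read as INK4 inhibitor RNA alone.

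**Figure D1:**
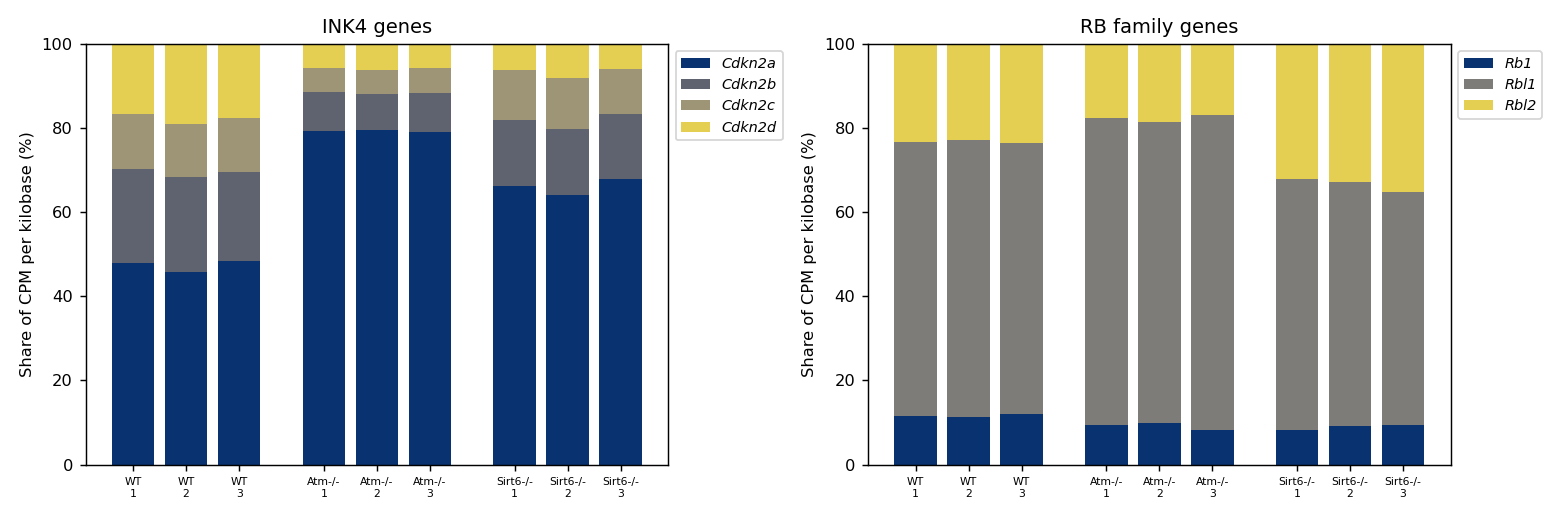
Share (%) of each gene in the summed CPM per kilobase of the INK4 genes (left) and of the RB family genes (right), one stacked bar per sample, with 3 samples of each genotype. Cdkn2a takes 45.8 to 48.4% of the INK4 sum in WT, 79.0 to 79.5% in Atm-/- and 64.1 to 68.0% in Sirt6-/-, and the Rbl2 share is widest in Sirt6-/-. The Cdkn2a count pools p16Ink4a and p19Arf RNA.

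Cdkn1b (chr6:134920401-134925513, plus strand) encodes p27Kip1, which inhibits cyclin-dependent kinases of a wider range than the INK4 proteins. It had 2551, 2290 and 2467 reads in WT, 1943, 1901 and 1719 in Atm-/- and 1993, 1913 and 2164 in Sirt6-/-. WT was highest and Atm-/- lowest, without overlap in normalized CPM. Its log2 fold change against WT was -0.53 in Atm-/- (standard error 0.06, adjusted p = 2.23e-06) and -0.32 in Sirt6-/- (standard error 0.06, adjusted p = 1.91e-04), and it was 0.19 higher in Sirt6-/- than in Atm-/- (adjusted p = 0.00533), all by edgeR.

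The RB family genes differed among themselves. Rb1 (chr14:73183673-73325822, minus strand), which encodes the founding RB protein, had 521, 502 and 560 reads in WT, 569, 559 and 507 in Atm-/- and 470, 485 and 503 in Sirt6-/-. It was not called in any comparison, and the 95% intervals of the log2 fold change ran from -0.29 to 0.11 in Atm-/-, from -0.37 to 0.03 in Sirt6-/- and from -0.29 to 0.10 between the mutants. In normalized CPM the Sirt6-/- samples nevertheless lay below WT without overlap, at 14.4 to 15.1 against 16.0 to 17.8. Lpar6, a receptor gene on the opposite strand within Rb1, was higher in Atm-/- (log2 fold change 0.74) and lower in Sirt6-/- (-0.87), and as the labels name no strand marking, reads from the stretch where both genes lie cannot be told apart.

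Rbl1 (p107, chr2:157145893-157204534, minus strand) is a pocket protein made mostly in cycling cells and is itself an E2F target. Reads were 1517, 1514 and 1525 in WT, 2282, 2112 and 2357 in Atm-/- and 1753, 1580 and 1533 in Sirt6-/-. Atm-/- stood above both other genotypes, while Sirt6-/- and WT overlapped. Atm-/- exceeded WT 1.35-fold (log2 fold change 0.43 with standard error 0.06, adjusted p = 3.13e-05, edgeR), and the Sirt6-/- difference from WT was 0.04 with a 95% interval from -0.10 to 0.19 (adjusted p = 0.583, edgeR).

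Rbl2 (p130, chr8:91070057-91123844, plus strand), the pocket protein typical of resting cells, was called higher than WT in Sirt6-/- and not called in Atm-/-. It had 1117, 1071 and 1152 reads in WT, 1133, 1120 and 1091 in Atm-/- and 1949, 1841 and 1990 in Sirt6-/-. The Sirt6-/- samples stood apart from all others. Rbl2 in Sirt6-/- reached 1.67-fold the WT level (log2 fold change 0.74 with standard error 0.06, adjusted p = 4.99e-08, edgeR), whereas its Atm-/- difference was -0.14 with a 95% interval from -0.28 to 0.01 (adjusted p = 0.0898, edgeR). With library totals as the scale the uncalled Atm-/- differences of Rb1 and Rbl2 took the other sign, at 0.07 and 0.03. Aktip overlaps the end of Rbl2 on the opposite strand and had log2 fold changes of -0.11 (not called) in Atm-/- and 0.28 in Sirt6-/- (called, but not without WT replicate 2 or Sirt6-/- replicate 3), and the same limit of strand applies to it.

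There were 0.733 ± 0.024 Rbl2 reads per Rbl1 read in WT, 0.497 ± 0.034 in Atm-/- and 1.19 ± 0.10 in Sirt6-/-. Per kilobase, Rbl1 held 65.1 ± 0.88% of the RB family sum in WT, 73.2 ± 1.57% in Atm-/- and 57.7 ± 2.02% in Sirt6-/-, while Rbl2 held 23.2 ± 0.46%, 17.7 ± 0.82% and 33.4 ± 1.5%. Rb1 had the smallest share in each genotype, at 11.6%, 9.14% and 8.92%. Among the members' levels per kilobase, Trp53 ranked highest in WT at 117 ± 5.26 CPM per kilobase, ahead of Cdkn2a at 77.8 ± 6.45, and Rb1 ranked lowest at 3.62 ± 0.20. In Atm-/- Cdkn2a ranked first at 236 ± 10.2 and Trp53 seventh at 13.9 ± 1.23, overlapping Mdm4 below it. In Sirt6-/- Cdkn2a, at 190 ± 13.2, and Trp53, at 149 ± 1.5, were the highest members and did not overlap.

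**Figure D2:**
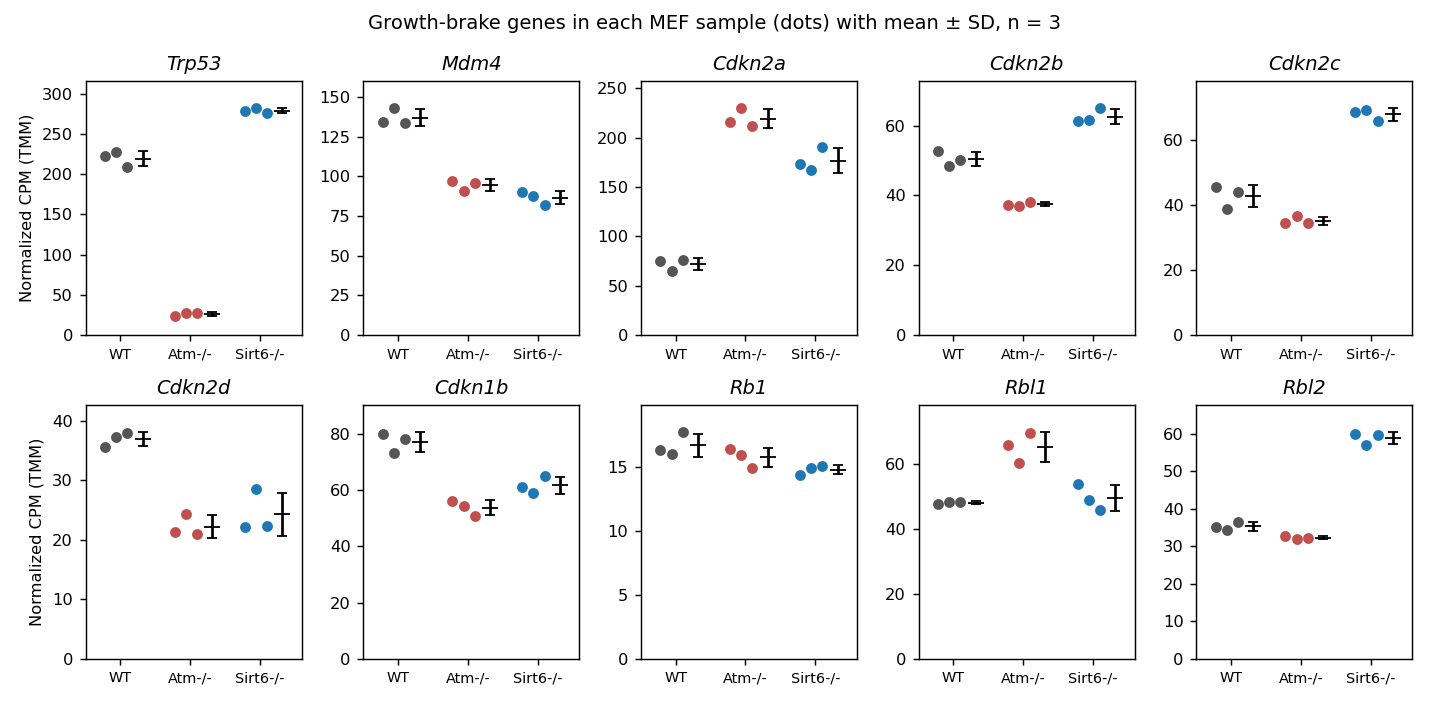
Normalized CPM (TMM-scaled, vertical axis from 0) of the 10 growth-brake genes in the WT, Atm-/- and Sirt6-/- samples, with a dot per sample and a bar for mean ± SD (n = 3). Trp53 falls to about 25.9 CPM in Atm-/-, Cdkn2a is above WT in both mutants, and Rbl1 is highest in Atm-/- while Rbl2 is highest in Sirt6-/-.

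Counting the members, 8 of 10 were called in Atm-/- against WT, 2 higher and 6 lower, where 68.4% of all genes tested were called (34.7% higher, 33.6% lower). In Sirt6-/- against WT 8 were called, 5 higher and 3 lower, against 76.6% of all genes (39.2% higher, 37.4% lower). Between the mutants 8 were called, 5 higher and 3 lower in Sirt6-/-, against 75.8% of all genes (37.8% higher, 38% lower). A member share of 80% is thus close to the background in each comparison and is no result about these genes. Samples did not overlap for 9, 9 and 8 members, where this held for 72.6%, 79% and 78.2% of genes tested. A change of 2-fold or more was called for 2 members in Atm-/- (Trp53 and Cdkn2a; 22.5% of all genes), for 1 in Sirt6-/- (Cdkn2a; 29.3%) and for 1 between the mutants (Trp53; 25.5%). The median log2 fold change of the members was -0.36, 0.18 and 0.16, beside 0.02, 0.02 and -0.00 over all genes. The comparisons with WT share the WT samples. The scale matters most in Atm-/- against WT, where library totals in place of TMM shift the median of all genes by 0.16 on the log2 scale and move the higher share of all calls from 50.8% to 64.9%.

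**Figure D3:**
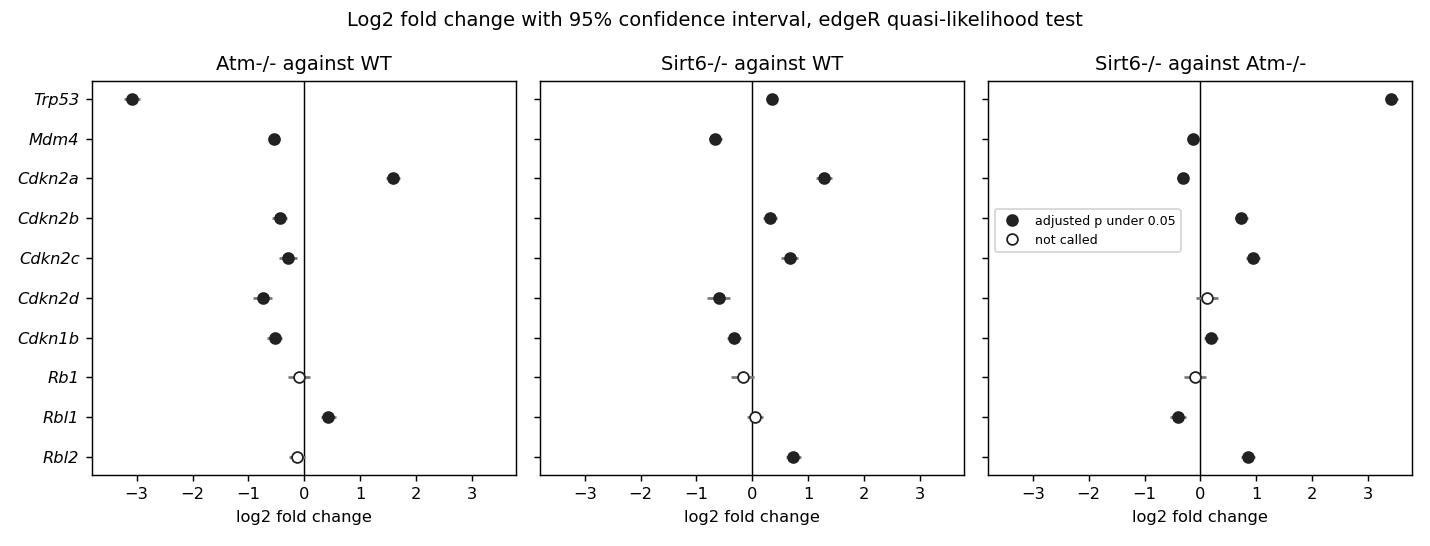
Log2 fold change (horizontal axis) with 95% confidence interval of the 10 members in Atm-/- against WT, Sirt6-/- against WT and Sirt6-/- against Atm-/- (n = 3 samples per genotype). Filled circles have an adjusted p under 0.05 and open circles do not. Trp53 lies at -3.09, 0.35 and 3.42, and Rb1 is open in all panels.

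What the brakes act on was read from lists of other genes in the same tests, some of which hold a gene in common (Mdm2, Cdkn1a, E2f1, E2f2, Ccne1 and Ccne2 stand in more than one). Of 19 tested p53 target genes in Atm-/-, 4 were higher and 10 lower than in WT, with a median log2 fold change of -0.40 beside 0.02 for all genes tested. The called share, 73.7%, was near the 68.4% of all genes. The deepest falls were Eda2r, a death receptor gene (log2 fold change -5.12), Ccng1, cyclin G1 (-2.58), and Btg2, an antiproliferative gene (-2.13). Eda2r had 2875, 1925 and 2186 reads in WT and 73, 95 and 53 in Atm-/-. The p21 gene Cdkn1a, a CDK inhibitor, had 1329, 832 and 762 reads in WT and 427, 553 and 454 in Atm-/- (log2 fold change -1.16, adjusted p = 2.44e-05, edgeR). Sesn1, Perp and Plk3 were higher, as was Bax (0.19), whose call was lost without WT replicate 3 or Atm-/- replicate 3.

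In Sirt6-/-, where Trp53 RNA was above WT, 5 of the 19 p53 targets were higher and 12 lower, with a median of -1.00 and 89.5% called, against 76.6% of all genes. Eda2r (log2 fold change -4.35), Ccng1 (-2.25), Btg2 (-1.91) and Cdkn1a (-2.30, with 200, 205 and 211 reads) were again below WT. Pmaip1, the Noxa gene of the BH3-only family, was lower (-3.18), at 28, 26 and 38 reads against 298, 232 and 276. Perp, which encodes a membrane protein of cell adhesion and cell death, was higher (log2 fold change 4.69), with 1728, 1737 and 1747 reads against 57, 75 and 62, and Fas and Sesn1 were higher too. The p53 relative Trp63 had 367, 398 and 411 reads in Sirt6-/-, 16, 0 and 15 in Atm-/- and 9, 6 and 2 in WT. Between the mutants 8 of the targets were higher and 7 lower in Sirt6-/-, and the called share, 78.9%, was near the 75.8% of all genes.

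**Figure D4:**
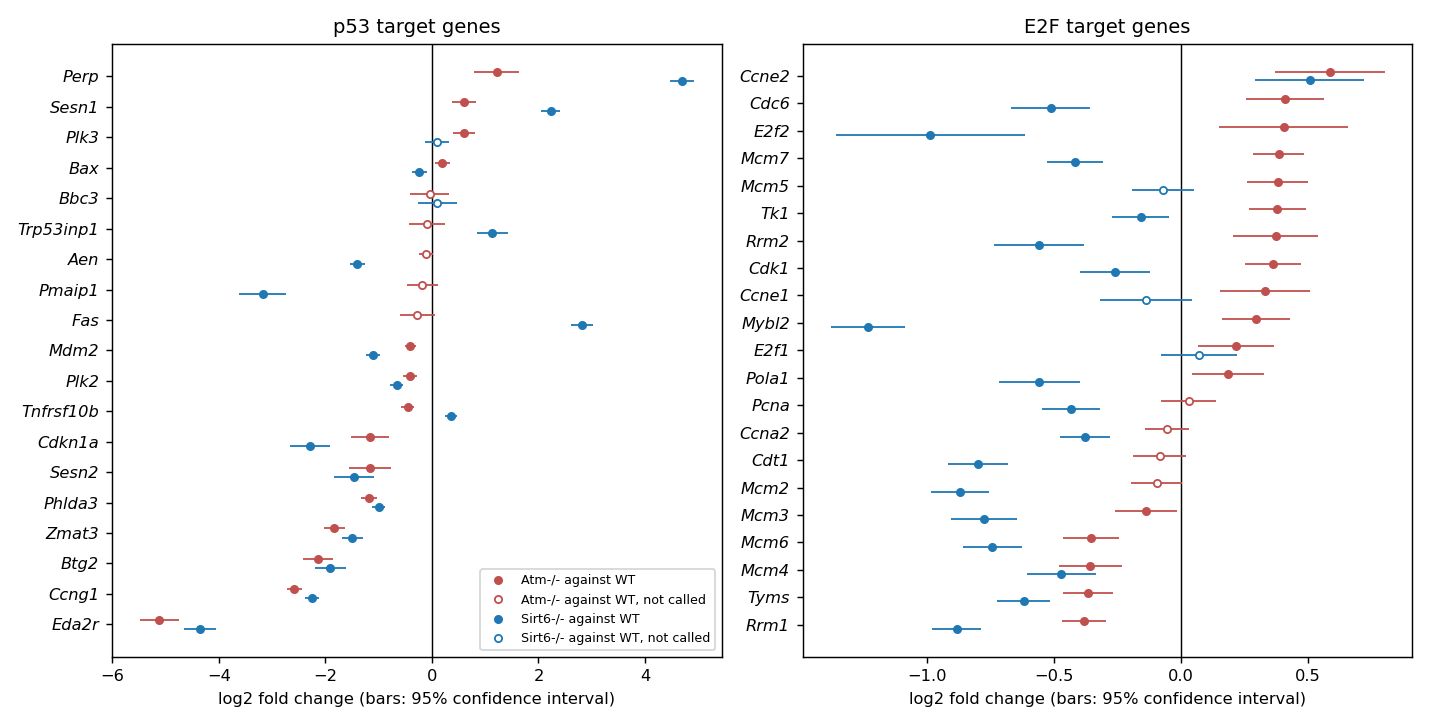
Log2 fold change with 95% confidence interval of the tested p53 target genes (left) and E2F target genes (right) in Atm-/- against WT and Sirt6-/- against WT (n = 3 samples per genotype), with open circles for genes not called and 1 tested E2F target gene not drawn. Among p53 targets both genotypes are mostly left of 0, and E2F targets lie mostly right of 0 in Atm-/- and left of 0 in Sirt6-/-.

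E2F target genes, which the RB family represses, differed in direction between the genotypes. Of 22 tested, 13 were higher and 5 lower in Atm-/- than in WT, with a median of 0.26 beside 0.02 for all genes, and 15 were higher and 4 lower with library totals as the scale. The called share was 81.8%, against 68.4% of all genes. Ccne2 (cyclin E2, log2 fold change 0.59) and Cdc6 (replication licensing, 0.41) were among those that rose, while Mcm4, Mcm6, Rrm1 and Tyms fell. Mcm3 was also called lower (-0.14), but that call was lost with library totals, DESeq2 and edgeR's exact test among other alternatives. In Sirt6-/- 1 was higher and 18 lower, with a median of -0.53 and 86.4% called against 76.6% of all genes, led by Mybl2 (-1.23), E2f2 (-0.98) and Rrm1 (-0.88). Tested directly between the mutants, 75.8% of all genes were called, 38% lower in Sirt6-/-. Of the 22 targets, 21 (95.5%) were lower there and 0 higher, with a median of -0.60. The remaining gene, Ccne2, differed by -0.09 between them and was not called, except with library totals (-0.15).

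Among 12 D cyclins and G1 kinases, 6 were higher and 2 lower in Atm-/-, 3 were higher and 5 lower in Sirt6-/-, and 2 were higher and 9 lower in Sirt6-/- than in Atm-/-. The share called, 66.7% against WT in both, was no higher than the 68.4% and 76.6% of all genes. The counts against WT are thus no result about the list. Between the mutants 91.7% were called, against 75.8% of all genes (38% lower in Sirt6-/-). With library totals the counts against WT were 8 higher and 2 lower in Atm-/- and 4 and 4 in Sirt6-/-. Between the mutants they were then 2 and 10. Cdk4, the main INK4 partner, was higher in Atm-/- (log2 fold change 0.46, adjusted p = 1.13e-07, edgeR) and differed by -0.02 in Sirt6-/- (not called). Cdk6 was lower in both, by -0.72 and -1.15, as was the cyclin D2 gene Ccnd2, by -1.34 and -1.08. Cyclin D1, Ccnd1, was higher in Atm-/- (0.69) and not called in Sirt6-/- (0.10), though called there with library totals (0.18). There were 0.178 ± 0.018 Cdkn2a reads per Cdk4 read in WT, 0.389 ± 0.011 in Atm-/- and 0.440 ± 0.031 in Sirt6-/-. As these Cdkn2a reads pool p16Ink4a and p19Arf RNA, the ratio is not one of p16Ink4a to Cdk4.

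Of the 15 E2F, DP and MuvB partners of the RB family, 6 were higher and 3 lower in Atm-/-, and 4 were higher and 5 lower in Sirt6-/-. The 60.0% called in each lies below the 68.4% and 76.6% of all genes, and with library totals the counts were 9 and 2 in Atm-/- and 6 and 5 in Sirt6-/-. Tfdp2, which encodes a dimer partner of E2F, was lower in both (log2 fold change -1.04 and -1.42). E2f7, a repressor E2F, was higher in both (0.67 and 0.31). E2f1 was higher in Atm-/- (0.22, adjusted p = 0.0123, edgeR) and not called in Sirt6-/- (0.07). The E2f1 call in Atm-/- was lost without WT replicate 1 (0.16), and with library totals E2f1 was called in Sirt6-/- too (0.16). Besides Cdkn1a, the list of genes named as CDK inhibitors by symbol held Cdkn3 and Cdkn1c (p57Kip2). Cdkn3, for which the symbol alone is the ground for listing, was lower in both (-1.13 and -0.59). Cdkn1c had 0 reads in all WT samples, 26, 3 and 12 in Atm-/- and 64, 36 and 53 in Sirt6-/-.

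Among 25 regulators of the Ink4/Arf locus, 12 were higher and 7 lower in Atm-/-, and 11 were higher and 10 lower in Sirt6-/-, with medians of 0.14 and 0.13. The list was not sorted by whether a gene represses or activates the locus, so counts and medians give no direction for it. The called shares, 76.0% and 84.0%, stand beside 68.4% and 76.6% of all genes, and with library totals the counts were 16 and 3 in Atm-/- and 13 and 8 in Sirt6-/-. Bmi1, a Polycomb repressor of Cdkn2a, was lower in both (log2 fold change -0.25 and -0.36), the first not called with library totals (-0.09). Ezh2, the Polycomb methyltransferase, was higher in Atm-/- (0.39) and lower in Sirt6-/- (-0.67), and its relative Ezh1 was higher in Sirt6-/- (2.47). Tbx3, a T-box repressor of p19Arf, had 15, 11 and 19 reads in WT, 1228, 1580 and 1293 in Atm-/- and 762, 816 and 816 in Sirt6-/-. Cbx7, another Polycomb gene, had 8, 0 and 4 reads in WT, 327, 316 and 289 in Atm-/- and 65, 45 and 67 in Sirt6-/-.

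Among 18 tested p53 family members, partners and modifiers, 6 were higher and 9 lower in Atm-/-, which became 8 and 7 with library totals. This list holds Atm itself, which was among those higher in Atm-/- (log2 fold change 1.04) and in Sirt6-/- (0.46). It also holds Wrap53, the Trp53 neighbour described below. In Sirt6-/- 5 of 19 were higher and 11 lower. The called shares were 83.3% and 84.2%, against 68.4% and 76.6% of all genes. Trp53bp2, which encodes the p53-binding protein ASPP2, was lower in both (log2 fold change -1.34 and -2.22). Chek2, a damage kinase upstream of p53, was lower in both too (-0.65 and -1.17). Among 9 genes of p27 turnover and transcription, 1 was higher and 4 lower in Atm-/- and 2 were higher and 3 lower in Sirt6-/-. The 55.6% called in each lies below the 68.4% and 76.6% of all genes. With library totals the split became 3 and 3 in Atm-/- and 4 and 3 in Sirt6-/-. These genes were not sorted by whether they raise or lower p27, so the split gives no direction for p27. Foxo3, an activator of Cdkn1b, was lower in Atm-/- (-0.54) and higher in Sirt6-/- (1.58), and Skp2, the ligase subunit that marks p27 for degradation, was not called in either (-0.03 and 0.09), except in Sirt6-/- with library totals or without WT replicate 2.

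The genes next to the members on the chromosome were read beside them. Wrap53 begins 104 bases from Trp53 on the opposite strand and was higher in Atm-/- (log2 fold change 0.62, adjusted p = 9.60e-05, edgeR), so that Trp53 had 15.7 ± 0.92 reads per Wrap53 read in WT, 1.20 ± 0.10 in Atm-/- and 23.1 ± 1.80 in Sirt6-/-. Pik3c2b beside Mdm4 had 11, 9 and 8 reads in WT, 237, 248 and 276 in Atm-/- and 163, 143 and 164 in Sirt6-/-. Of 11 tested neighbours, 5 were higher and 5 lower in Atm-/-, and 5 were higher and 4 lower in Sirt6-/-, where 68.4% and 76.6% of all genes were called. With library totals the counts were 5 and 0 in Atm-/- and 6 and 3 in Sirt6-/-.

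The genes whose centred log2 CPM over the 9 samples lay closest to a member's were sought among 13757 genes for the members that differed most. For Trp53 these included Arnt2 (root mean square difference 0.14) and Tmem45a (0.23), and for Cdkn2a they were Zcwpw1 (0.13), Tmem69 (0.13) and Hk1 (0.14). Arnt2 had mean CPM of 113 in WT, 13.5 in Atm-/- and 139 in Sirt6-/-, and Hk1, a hexokinase gene, had 52.2, 155 and 147. The 9 samples form 3 genotypes, so this likeness rests on few independent levels.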

How the data were processed

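Messenger RNA was selected with oligo(dT) and sequenced on the Illumina platform in 9 MEF samples, 3 per genotype. For each sample the authors deposited whole-number read counts per gene and RPKM, which are the same counts divided by the listed length and a read total. The submitters' notes name the mm10 build, and the aligner and counter are not given in the sources used here. Only the deposited counts were tested, and RPKM were used to check the read totals.

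Each pair of genotypes was fitted in edgeR 4.0.16 (R 4.3.3) with filterByExpr, TMM scaling, glmQLFit and glmQLFTest, and p-values were adjusted over all genes tested by the Benjamini-Hochberg method, with a threshold of 0.05. Levels are CPM with TMM factors over the 9 samples, and CPM per kilobase of listed length between genes. Fold changes of genes with few reads depend on the prior count. The procedure was tested on simulated counts. Positions come from GENCODE M21 on GRCm38, the assembly named mm10, to which 95.2% of listed genes were matched by symbol.

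The members and gene lists were chosen with earlier results of these data known. Genes named are the members, Atm, Sirt6, Mdm2, Cdkn1a, Ccnd1, Cdk4, Cdk6, E2f1, Mtap, up to 3 genes per list and comparison with the largest called fold change and a mean log2 CPM of at least 1, the neighbours, and the 3 genes most like Trp53 and Cdkn2a, of which some are not reported here by name. The others named (such as Thy1, Krt18, Bax, Fas, Plk3, Skp2, Bmi1, Cdkn1c and the lower Mcm genes) were chosen after their values were seen. Alternatives were DESeq2 1.42.0 size factors and its Wald test, library totals, no filter or at least 10 counts in every sample, all 9 samples in one fit, the replicate block, edgeR's exact test, and each sample left out.

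Between samples of a genotype the chi-square per gene was 5.11 to 15.6 and none were identical. The pairs with WT replicate 2 gave 15.6 and 14.4, and all other pairs gave at most 6.66. The 3 reads of the detection floor equal 0.0887 to 0.0932 CPM and cover counting error only.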

Additional observations from a re-analysis of the deposited data

How the results depend on the processing

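Of the members' 240 log2 fold changes under alternatives other than leaving out a sample, 239 kept their side of the threshold and, where called, their direction, and 1, Cdkn2c in Atm-/- against WT, was no longer called with library totals (-0.13, adjusted p = 0.132, edgeR). With each sample left out, 177 of 180 kept theirs, and the other 3 were Mdm4 between the mutants, at -0.10, -0.11 and -0.12 in the fits that lost the call. No called member changed sign. The count of neighbouring genes called in Atm-/- against WT, 10, became 5 with library totals and 5 with at least 10 counts in every sample. Among other named genes, 2 calls took the other sign with library totals and were then not called, Mtap (0.032) and Mcm3 (0.027) in Atm-/- against WT. The causes were not tested. The replicate block left 8 members called in each comparison. The numbers gave no clear pairing of the samples. Deviations of same-numbered samples correlated with a mean r of -0.00 in Atm-/- and WT, 0.01 in Sirt6-/- and WT and 0.03 between the mutants. Of 18, 10 correlated best with their own number. Between the mutants r was 0.018 to 0.031 for same numbers and -0.032 to 0.0003 for others, so a weak pairing there is not excluded. The block changed the number of genes called from 9080, 10114 and 10205 to 8833, 10040 and 10157. Every member was counted with at least 470 reads in each sample, and for the differences of Rb1, Rbl1, Rbl2 and Cdkn2d that were not called, the intervals given with each bound what 3 samples per genotype could show.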
